A study of Mus musculus with 3 samples.

Results

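The 4 tissue inhibitors of metalloproteinases, Timp1, Timp2, Timp3 and Timp4, were followed in single-cell RNA counts of endothelium from the gastrocnemius muscle of mice. Their rows were found by symbol, which gave 4 of the 41605 genes in the count matrices, and all 4 gene IDs matched the annotation. The genes were chosen with results of these data already known: the family was selected on Timp4, which had been found lower in the capillary cells of the running library than in the other libraries. The differences between libraries are therefore a description, and no test was made of them.

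All libraries came from C57BL/6N mice, and viable cells were sorted as CD31+, CD45- and SYTOX blue- after enzymatic digestion of the muscle. The running group held singly housed mice with free access to a wheel for 14 days. The sedentary group held singly housed mice in cages of the same size that had no wheel. The untreated group was labelled only as having no treatment, and nothing was said of its housing. Nor do the sources used here give age, sex, dates, batches or how many animals stood behind a library. Each group had 1 library, so no value has a replicate, and every interval below is a 95% interval for counting error alone.

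The running, sedentary and untreated libraries held 5983685, 5625068 and 8002866 unique molecular identifiers (UMIs, each standing for 1 captured transcript), and 3212, 4015 and 4325 cells passed the filters. Cells were clustered without the TIMP genes and named from marker genes as capillary-like (2323 running, 2970 sedentary and 2515 untreated cells), artery-like (472, 664 and 1078), vein-like (223, 231 and 585) and lymphatic-like (43, 10 and 27). Of the class markers, 12 of 13 for capillaries, 14 of 16 for arteries and 12 of 12 for veins were highest in their own class when the 3 blood vessel classes were compared, with Btnl9, Cxcl12 and Eln as the exceptions. Among the others, Bmx, Stmn2, Nr2f2 and Csrp2 were higher still in lymphatic-like cells. All 10 general endothelial markers, among them Pecam1 (CD31) and Cdh5, were detected in the capillary-like cells of each library. Clusters 3 and 5 held most of the untreated capillary-like cells (439 and 1133), whereas they held 20 and 135 of the running cells and 14 and 131 of the sedentary cells. For the untreated library, batch and group cannot be told apart. The running and sedentary libraries shared 23 cell barcodes, the running and untreated libraries 20, and the sedentary and untreated libraries 32.

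TIMPs are small secreted proteins that bind the catalytic site of matrix metalloproteinases, the enzymes that cut collagens, laminins and other parts of the basement membrane around vessels. TIMP3 is held in the extracellular matrix, also inhibits several ADAM and ADAMTS proteinases, and can block VEGF binding to its receptor VEGFR2. TIMP2 takes part in the activation of pro-MMP2 by MMP14 as well as in inhibition, TIMP1 is the inducible member best known from inflammation and fibrosis, and TIMP4 is the member with the most restricted tissue distribution, with high levels in heart.

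All but Timp2 lie within a synapsin gene on the opposite strand (GRCm38, GENCODE M21). Timp4 (ENSMUSG00000030317) lies at chr6:115241892-115252205 on the minus strand inside Syn2, and Timp3 (ENSMUSG00000020044) lies at chr10:86300372-86349506 on the plus strand inside Syn3. Timp1 (ENSMUSG00000001131) lies at chrX:20870166-20874735 on the plus strand inside Syn1, and Timp2 (ENSMUSG00000017466) lies at chr11:118301069-118355740 on the minus strand. Exons of Timp4 overlap exons of Syn2, and exons of Timp3 overlap exons of Syn3, while no exons of Timp1 and Syn1 overlap. The use of strand in counting is not given in the sources used here, and without strand reads of overlapping exons cannot be told apart. The synapsin genes had few counts: Syn2 had 58, 56 and 106 UMIs in the running, sedentary and untreated libraries, Syn3 had 48, 34 and 83, and Syn1 had 0 in each. A further overlapping gene model at Timp4, Gm17482, also had 0 UMIs in every library, and Cep295nl, which lies inside Timp2, had 1, 0 and 1.

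The sequences before the start sites of Timp4 and Timp3 are shown because these members had most of the TIMP counts and differed between the libraries in different ways. They are from RefSeq (GRCm38.p6), written 5′ to 3′ on the strand of the gene, Timp4 at chr6:115252206-115252455 on the minus strand and Timp3 at chr10:86300162-86300371 on the plus strand. The Timp3 stretch of 210 bases ends before the GENCODE start of the gene. The RefSeq start lies further on, so the bases nearest to it are not shown. Capitals mark the motifs searched on both strands that occur in these stretches, which are CACCC and AGGAAG or their reverse complements.

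Timp4: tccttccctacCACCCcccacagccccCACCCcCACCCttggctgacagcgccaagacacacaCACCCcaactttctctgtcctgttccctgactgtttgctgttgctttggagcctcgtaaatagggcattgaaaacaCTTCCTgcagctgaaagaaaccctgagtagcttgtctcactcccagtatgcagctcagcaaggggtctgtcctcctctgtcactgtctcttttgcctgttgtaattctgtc
Timp3: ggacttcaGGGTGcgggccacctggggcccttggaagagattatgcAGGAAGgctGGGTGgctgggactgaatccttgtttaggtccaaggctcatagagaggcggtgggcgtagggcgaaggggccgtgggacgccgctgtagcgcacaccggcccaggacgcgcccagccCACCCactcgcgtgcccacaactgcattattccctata

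Over the 250 bases before the RefSeq start, the promoters differed in composition. The Timp4 promoter had 2 CpG pairs and a GC content of 53.6%, the Timp3 promoter had 18 CpG pairs and 65.6%, the Timp2 promoter had 21 and 68%, and the Timp1 promoter had 6 and 54.4%. Among 32851 RefSeq promoters of the same length, 18.8% had fewer CpG pairs than Timp4 and 78.3% had fewer than Timp3. The Timp4 promoter held CACCC at 4 places, the Timp3 promoter at 3, the Timp2 promoter at 1 and the Timp1 promoter at none; 52% of all promoters held it at least once. GGGCGG (the GC box) occurred once in Timp1, Timp2 and Timp3 and not in Timp4, and in 32.7% of all promoters. In Timp3 it lay at -15 from the RefSeq start, in the part not shown above. AGGAAG occurred in Timp1, Timp3 and Timp4 and in 29.5% of all promoters, while TATAAA (12.4% of all promoters) and TGANTCA (6.75%) occurred in none of the 4. A match in these letters is a description and not a binding site.

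Among the 4 vessel classes, Timp4 was highest in capillary-like cells in all 3 libraries. Its level, in CPM (its UMI count scaled to a fixed total of all UMIs in the class and library, 1000000), was 664 in running, 1229 in sedentary and 1375 in untreated capillary-like cells. In artery-like cells it was 324, 470 and 514 CPM in the same order, and in vein-like cells 135, 274 and 196 CPM. Lymphatic-like cells held only 6, 5 and 1 Timp4 UMIs, or 46.2, 241 and 12.6 CPM. In the sedentary library the interval of their log2 ratio to vein-like cells included 0 (-0.05, interval -1.83 to 1.07). The order capillary, artery, vein held in each library: capillary-like cells were 2.05-fold over artery-like cells in the running, 2.61-fold in the sedentary and 2.67-fold in the untreated library, and 4.91-, 4.47- and 6.99-fold over vein-like cells. The classes came from clusters of these same cells, so the order is a description.

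Timp3 was spread more evenly over the blood vessel classes. It stood at 754, 737 and 1399 CPM in running, sedentary and untreated capillary-like cells, at 648, 763 and 1690 CPM in artery-like cells, and at 590, 589 and 1151 CPM in vein-like cells. Vein-like cells had the lowest of the 3 values in each library, although in the running library the interval of their log2 ratio to artery-like cells included 0 (-0.14, interval -0.32 to 0.040). Capillary-like cells were above artery-like cells in the running library (log2 ratio 0.22, interval 0.10 to 0.34) and below them in the untreated library (-0.27, interval -0.33 to -0.21), and in the sedentary library the interval of that ratio included 0 (-0.05, interval -0.16 to 0.06). Clusters within a class differed as well. In the running library, artery-like clusters 1 and 2 had 449 and 837 CPM of Timp3. Vein-like clusters 4 and 11 had 721 and 358 CPM there, and capillary-like clusters 0 and 6 had 508 and 861 CPM. Cluster 2 held 196 of the 472 running and 620 of the 1078 untreated artery-like cells. The part of cluster make-up in the class values was not tested. Lymphatic-like cells had 1877, 1062 and 1749 CPM, from 43, 10 and 27 cells. A small unnamed cluster led by Penk and Itm2a (cluster 16, with 33, 41 and 58 cells) had 2329, 1660 and 2707 CPM of Timp3 and 97.8, 159 and 61.7 CPM of Timp4.

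Timp2 ran in the opposite order, from low in capillaries to high in lymphatics. Running, sedentary and untreated capillary-like cells had 13.5, 16.8 and 20.1 CPM, artery-like cells 47.6, 40.1 and 70.2 CPM, vein-like cells 231, 250 and 298 CPM, and lymphatic-like cells 792, 1014 and 1233 CPM. Vein-like cells were 17.0-fold over capillary-like cells in the running library, 14.8-fold in the sedentary library and 14.7-fold in the untreated library. Lymphatic-like cells were 58.4-, 61.2- and 61.2-fold over capillary-like cells in these libraries. The artery-like class was not uniform. Its small cluster 9, led by Cytl1 and Mgp, had 350 CPM of Timp2 (240 to 495) in 46 untreated cells, above the untreated vein-like level. Untreated cells of artery-like clusters 1 and 2 had 54.1 and 58.8 CPM. Timp4 stood at 186 CPM in the untreated cells of cluster 9.

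Timp1 was close to undetected. All kept cells together held 9 running, 3 sedentary and 7 untreated Timp1 UMIs, and capillary-like cells held 0, 2 and 1. With 0 UMIs, 3 counts would allow up to 0.826 CPM in running capillary-like cells, so no difference was detectable at this depth. Vein-like cells held 4, 0 and 5 Timp1 UMIs.

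**Figure D1:**
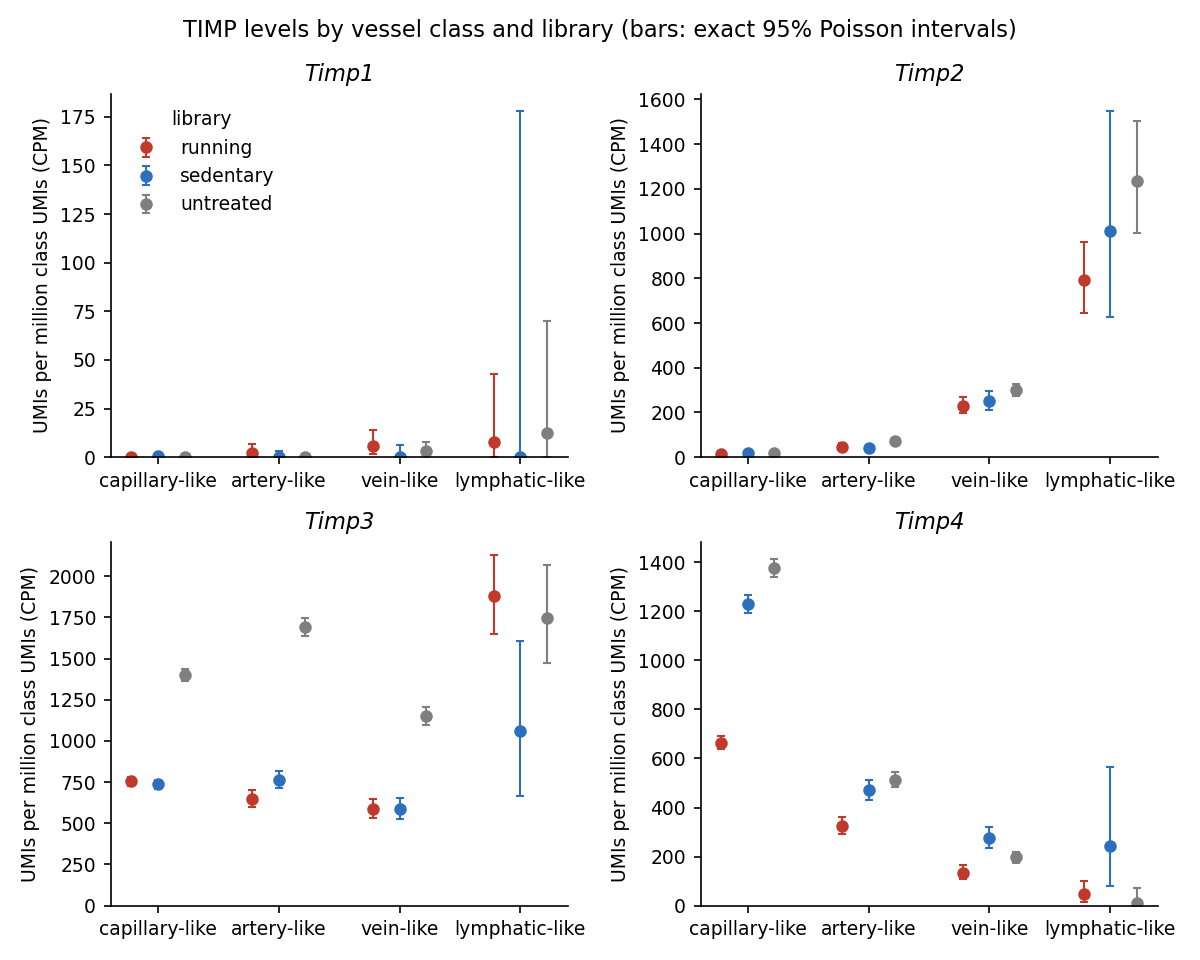
Level of each TIMP gene (vertical axis, CPM, with a scale of its own in each panel) in 4 vessel classes, with 1 point for each library in the order running, sedentary, untreated and bars for exact 95% Poisson intervals. Timp4 is highest in capillary-like cells and lower in the running than in the sedentary library there (664 and 1229 CPM), Timp3 is highest in the untreated library in the 3 blood vessel classes, and Timp2 is highest in lymphatic-like cells.

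The make-up of the TIMP counts followed the vessel class. UMIs were read from transcript ends, so counts do not scale with transcript length, although capture may still differ between genes. Timp4 made up 46.4% of the TIMP UMIs of running capillary-like cells, 62.0% in sedentary and 49.2% in untreated cells. In vein-like cells its share was 14.0%, 24.6% and 11.9%, while Timp2 made up 24.0%, 22.5% and 18.1%. Timp3 was the largest share in artery-like cells, with 63.4%, 59.9% and 74.3%. In capillary-like cells there were 0.880 Timp4 UMIs per Timp3 UMI in the running library (interval 0.833 to 0.930), against 1.67 in the sedentary library (1.59 to 1.75) and 0.982 in the untreated library (0.946 to 1.02). The 4 genes together came to 1432, 1983 and 2794 CPM in capillary-like cells.

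**Figure D2:**
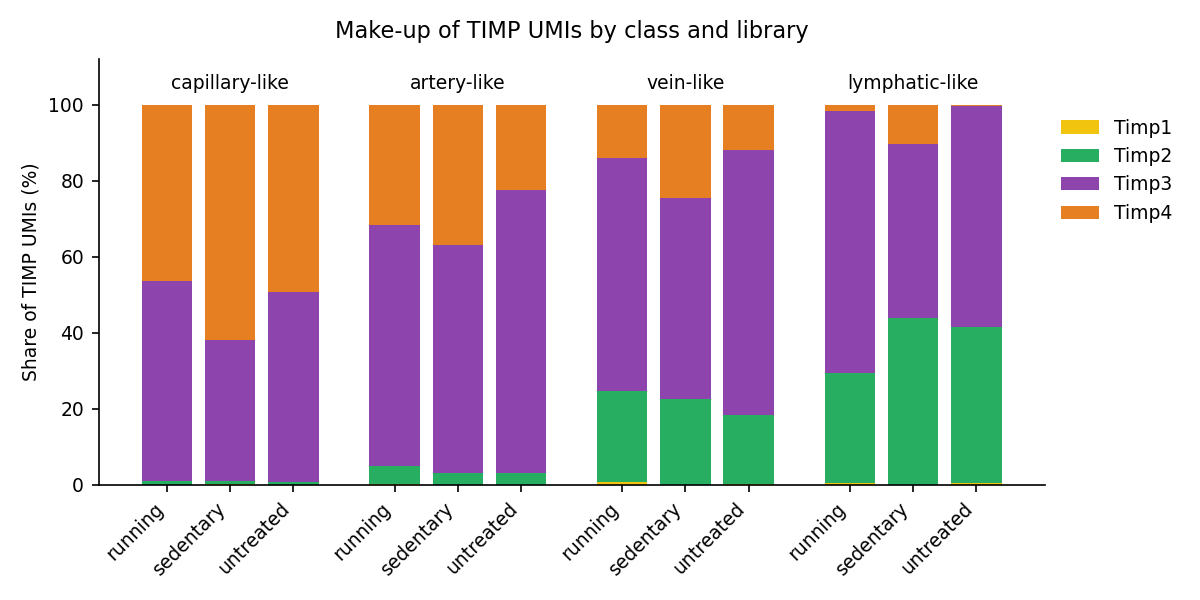
Share of each TIMP gene in all TIMP UMIs of a class (vertical axis, percent), with 1 stacked bar for each library in each vessel class. Timp4 makes up 46.4% in running and 62.0% in sedentary capillary-like cells, and Timp2 is visible mainly in vein-like and lymphatic-like cells.

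The main comparison set the running library against the sedentary one. Timp4 was lower in running cells in each blood vessel class. The log2 ratio was -0.89 in capillary-like cells (interval -0.96 to -0.82), -0.54 in artery-like cells (-0.74 to -0.34) and -1.02 in vein-like cells (-1.40 to -0.65), so that the running level was 0.541-, 0.689- and 0.492-fold the sedentary level. Timp3 differed less, and its log2 ratio was 0.03 in capillary-like cells (-0.04 to 0.11), 0.00 in vein-like cells (-0.21 to 0.21) and -0.23 in artery-like cells (-0.38 to -0.09). For Timp2 the intervals included 0 in all 3 classes, at -0.31 (-0.89 to 0.25), 0.25 (-0.36 to 0.86) and -0.12 (-0.44 to 0.21) for capillary-like, artery-like and vein-like cells. In capillary-like cells the Timp2 interval, from 49 running and 60 sedentary UMIs, was wide enough to hold a difference of the size seen for Timp4.

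A gene was counted as lower or higher where its log2 ratio differed from 0 by at least 0.32 and it had at least 100 UMIs over both libraries. In capillary-like cells 1 of the 3 TIMP genes with that many counts was lower, Timp4, beside 11.8% of all 7608 genes. Since this contrast chose the genes, nothing is read from that share. In artery-like cells 1 of 2 was lower, beside 10.2% of 3643 genes, and in vein-like cells 1 of 3, beside 13.5% of 2093 genes, in both cases again Timp4. The median log2 ratio of all genes was -0.02, 0.01 and -0.02 in capillary-like, artery-like and vein-like cells. When each library was clustered alone, the artery-like Timp4 ratio was -0.11, no longer past that limit, and its interval included 0 (-0.28 to 0.058).

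The libraries filled the clusters unevenly, and Timp4 was also compared within clusters. Cluster 6, led by Tnf, Socs1, Cdkn1a and Jund, held 1017 running, 705 sedentary and 97 untreated capillary-like cells, and cluster 8, with a median of 686 UMIs per cell, held 471, 1133 and 273. In the 5 capillary-like clusters with at least 50 cells in each library, the running over sedentary log2 ratio of Timp4 lay between -0.88 and -0.54, and each interval was below 0. Over the 9 blood vessel clusters of that size the ratio was negative in 9, from -1.01 to -0.30, and the interval was below 0 in 8. Cluster 2, an artery-like cluster, was the exception. In cluster 0, which capillary markers Car4 and Gpihbp1 lead, Timp4 stood at 881, 1527 and 2020 CPM in running, sedentary and untreated cells. In cluster 6 it stood at 565, 1006 and 1183 CPM. Without cluster 6 the capillary-like ratio was -0.80.

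For Timp3 the running over sedentary log2 ratio was negative in 8 of the 9 blood vessel clusters, with the interval below 0 in 2 and above 0 in 1. Over the 5 capillary-like clusters it ran from -0.09 to 0.57, and the positive ratio was that of cluster 10, which is led by interferon response genes such as Ifit1 and Isg15. There the Timp3 level was 702 CPM for running, 472 CPM for sedentary and 1439 CPM for untreated cells. In artery-like clusters 1 and 2 the Timp3 ratio was -0.27 and -0.30, with both intervals below 0.

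**Figure D3:**
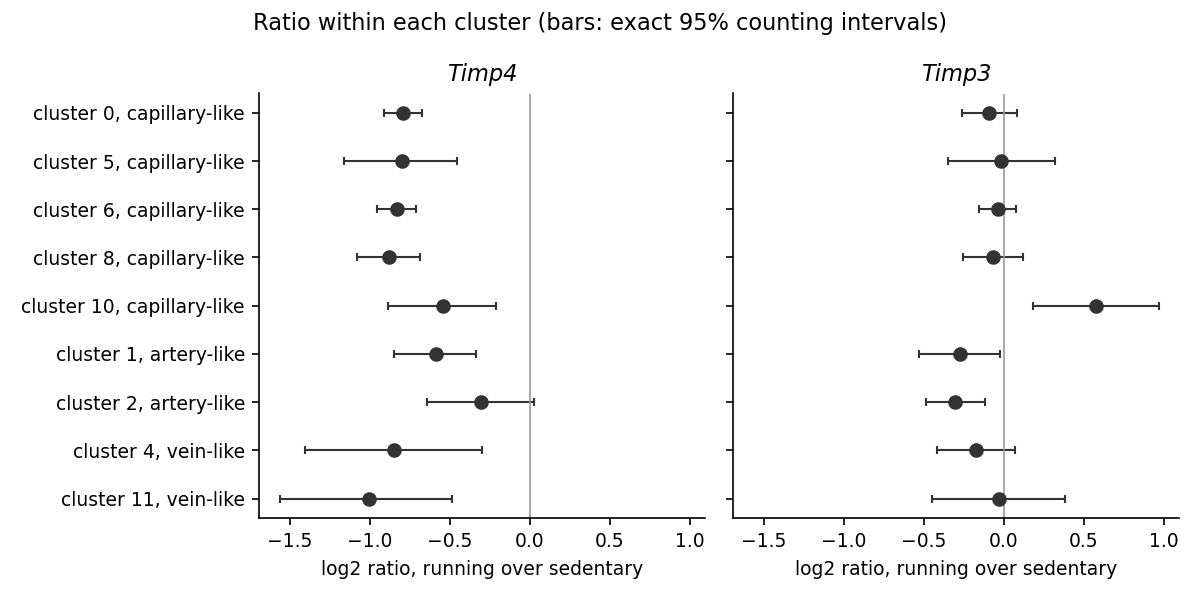
Log2 ratio of the running over the sedentary library (horizontal axis) within each of the 9 blood vessel clusters (rows) for Timp4 and Timp3, with points for the ratio and bars for exact 95% counting intervals. Timp4 ratios lie left of 0 in all 9 clusters, from -1.01 to -0.30, while Timp3 ratios lie left of 0 in 8 of them and right of 0 in cluster 10, with a range of -0.30 to 0.57.

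Cells differed in depth between libraries, with medians of 1342, 960 and 1439 UMIs in running, sedentary and untreated capillary-like cells, so shares of cells were taken after each cell was thinned to 1000 UMIs. This left out 763 running, 1535 sedentary and 548 untreated capillary-like cells with fewer UMIs. A Timp4 UMI was found in 42.0% of the remaining running cells, 62.5% of the sedentary and 61.6% of the untreated ones, a difference of -20.5 percentage points between running and sedentary cells (interval -24.0 to -16.9). Without thinning the shares were 50.8%, 62.3% and 72.0%. In lymphatic-like cells, where Timp4 was near its lowest, the thinned shares were 4.88%, 11.1% and 3.70% (of 41, 9 and 27 cells), with medians of 2626, 1934.5 and 2404 UMIs per cell before thinning. Artery-like cells had 24.6%, 36.1% and 34.5%, and vein-like cells 12.6%, 21.7% and 13.5%. In artery-like cells the difference between running and sedentary cells was -11.6 percentage points (-17.6 to -5.39), but -5.15 (-9.86 to -0.32) at 500 UMIs and -3.87 without thinning (-9.79 to 2.11), where the interval included 0. In vein-like cells the shares without thinning were 29.1%, 41.6% and 24.1%, which put running above untreated cells.

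In capillary-like cells both the share of cells with Timp4 and the number of UMIs in a positive cell were lower in the running than in the other libraries. Cells with any Timp4 UMI averaged 1.63 UMIs in the running, 1.97 in the sedentary and 2.24 in the untreated library after thinning. In vein-like cells the number was 1.27, 1.20 and 1.40, from 26, 45 and 73 positive cells. In the running, sedentary and untreated libraries, 2.18%, 7.87% and 10.7% of the thinned capillary-like cells had 4 or more Timp4 UMIs. For Timp3 the shares of these capillary-like cells with a UMI were 47.9%, 45.3% and 67.7%, and cells with 4 or more UMIs made up 2.05%, 1.81% and 9.05%. A Timp1 UMI was found in 0 of 1560 thinned running capillary-like cells, which at 3 counts allows a UMI in up to 0.192% of cells and sets no limit on the share of cells that express the gene.

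**Figure D4:**
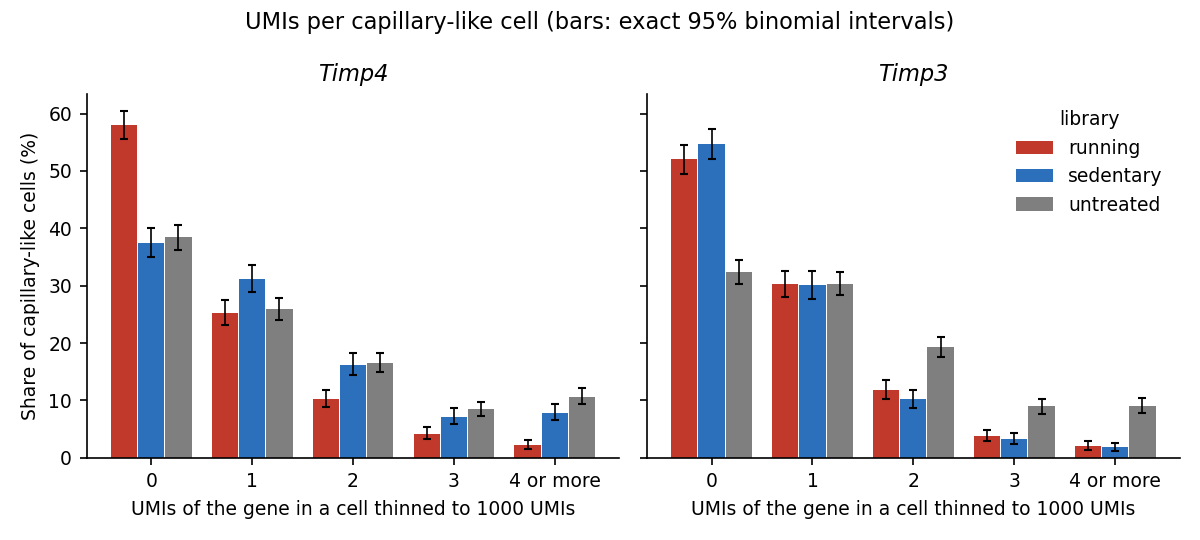
Share of thinned capillary-like cells (vertical axis, percent) with 0, 1, 2, 3 or at least 4 UMIs (horizontal axis) of Timp4 and of Timp3, with 1 bar for each library and exact 95% binomial intervals. For Timp4 the running library has the most cells at 0 UMIs (58.0%), and for Timp3 the untreated library stands apart, with the fewest cells at 0 UMIs (32.3%).

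In the running and sedentary libraries a Timp3 UMI was found somewhat less often in capillary-like cells with Timp4 than in those without it. In the untreated library the shares were close. In running capillary-like cells, 45.2% of those with a Timp4 UMI and 49.9% of those without had a Timp3 UMI. The shares were 43.6% and 48.1% in sedentary cells, and 67.5% and 68.0% in untreated cells. The intervals of the shares with and without Timp4 overlapped in each library, for example 41.3% to 49.1% and 46.6% to 53.3% in running cells. Such overlap does not measure the difference between the shares, for which no interval was calculated.

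Against the untreated library, the members differed from their pattern between running and sedentary cells. The ratios with untreated cells share that library, and the ratios with running cells share the running one, so they are given side by side and are not independent. For Timp3 the running over untreated log2 ratio was -0.89 in capillary-like (-0.96 to -0.82), -1.38 in artery-like (-1.50 to -1.26) and -0.96 in vein-like cells (-1.12 to -0.81). The sedentary over untreated ratio was -0.92 (-0.99 to -0.86), -1.15 (-1.26 to -1.04) and -0.96 (-1.14 to -0.80). Both Timp3 ratios were below 0, with their intervals, in 9 of 9 blood vessel clusters. Scaling by TMM shifted the capillary-like ratios to the untreated library by -0.12 for running and -0.11 for sedentary cells, where the median of all genes was 0.08 and 0.11. Relative to that median the Timp3 differences are larger than the values given.

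Timp4 was lower in running than in untreated cells as well, with log2 ratios of -1.05 in capillary-like (-1.12 to -0.98), -0.66 in artery-like (-0.85 to -0.49) and -0.54 in vein-like cells (-0.89 to -0.21). Between sedentary and untreated cells its ratios were -0.16 in capillary-like (-0.22 to -0.10), -0.13 in artery-like (-0.28 to 0.02) and 0.48 in vein-like cells (0.20 to 0.76). Within vein-like clusters 4 and 11 the sedentary over untreated ratio was 0.28 and -0.09, and neither interval excluded 0. Within artery-like clusters 1 and 2 this Timp4 ratio was -0.43 (-0.63 to -0.23) and -0.34 (-0.60 to -0.09), further from 0 than in the class sum. Over the 5 capillary-like clusters it ran from -0.47 to -0.23, with the interval below 0 in 3. The vein-like ratios to the untreated library depended on how cells were chosen: with at least 500 genes per cell the running over untreated ratio of Timp4 was 0.071, and with each library clustered alone the sedentary over untreated ratio was -0.054.

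By the same limit of 0.32, 3 of 3 TIMP genes with enough counts were lower in running than in untreated cells in capillary-like (beside 16.4% of all genes), artery-like (19.7%) and vein-like cells (23.4%). The family was selected on Timp4 in this capillary-like contrast too, so nothing is read from the capillary-like share. Between sedentary and untreated cells 1 of 3 was lower in capillary-like cells (Timp3, beside 15% of all genes), 2 of 3 in artery-like cells (Timp2 and Timp3, beside 20.1%) and 1 of 3 in vein-like cells (Timp3, beside 25.9%). Timp4 was higher in sedentary vein-like cells, 1 of 3 beside 26.8% of all genes. Timp2 had running over untreated log2 ratios of -0.57 (-1.12 to -0.05), -0.55 (-1.06 to -0.09) and -0.37 (-0.63 to -0.11) in capillary-like, artery-like and vein-like cells. With each library clustered alone these were -0.31 (-0.89 to 0.26) in capillary-like and -0.16 (-0.43 to 0.090) in vein-like cells, so Timp2 no longer passed the limit in either class. Within the 9 blood vessel clusters the Timp2 ratio ran from -1.26 to 0.95, was negative in 6 and had its interval below 0 in 2, neither of them capillary-like. The sedentary over untreated Timp2 ratio was negative in 5 of these 9 clusters, with the interval below 0 in 0. In artery-like clusters 1 and 2 it was -0.73 (-1.63 to 0.11) and -0.44 (-1.22 to 0.23). Artery-like cluster 9 held 46 untreated and 8 sedentary cells, and gave 32 of the 147 untreated artery-like Timp2 UMIs.

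For Timp2 the sum over all kept cells differed from the classes. It was 71.4 CPM in the running library (423 UMIs) against 50.7 CPM in the sedentary library (282 UMIs), a log2 ratio of 0.49 (0.27 to 0.72). Lymphatic-like cells gave 103 of the 423 running UMIs and 21 of the 282 sedentary ones, mural or fibroblast cells gave 44 and 2, and vein-like cells gave 168 and 146. The lymphatic-like class itself was at 792 CPM in running and 1014 CPM in sedentary cells, and held 1.34% and 0.249% of the kept cells.

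Cells were also split by Atf3, a stress-induced transcription factor gene. In thinned running capillary-like cells, Timp4 stood at 614 CPM where an Atf3 UMI was found and at 710 CPM where none was, in sedentary cells at 956 and 1285 CPM, and in untreated cells at 1134 and 1418 CPM. The interval of the log2 ratio between cells with and without Atf3 was below 0 in sedentary (-0.42, -0.64 to -0.22) and untreated cells (-0.32, -0.50 to -0.15), and reached 0.00 in running cells (-0.21, -0.42 to 0.00). Timp3 stood at 820 CPM in running cells with an Atf3 UMI and at 719 CPM in those without, at 873 and 648 CPM in sedentary cells, and at 1606 and 1373 CPM in untreated cells. Its log2 ratio between these cells was 0.19 in running (0.00 to 0.38), 0.43 in sedentary (0.20 to 0.66) and 0.23 in untreated cells (0.07 to 0.38), so it lay on the other side of 0 from that of Timp4. The Timp4 ratio of running over sedentary cells was -0.64 (-0.91 to -0.37) among cells with an Atf3 UMI and -0.86 (-0.98 to -0.73) among those without.

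Markers of other cells in the capillary-like class also differed between libraries. The 10 mural markers summed to 242, 172 and 197 CPM in running, sedentary and untreated cells, with 10, 8 and 9 of them detected. The 9 fibroblast markers summed to 8.54, 4.20 and 5.10 CPM, the 7 lymphatic markers to 164, 77.4 and 54.3 CPM, and the 10 muscle fibre markers to 102, 75.1 and 67.0 CPM. The 6 erythrocyte markers summed to 665, 1011 and 75.7 CPM, so that they were low in the library where Timp3 was high. The 10 leukocyte markers summed to 3.86, 0.841 and 1.02 CPM, with Ptprc at 0 in each. The 36 early response and stress genes summed to 25742, 18618 and 26851 CPM. The part of muscle fibre, lymphatic and erythrocyte RNA in the TIMP values was not tested. With cells holding a mural, fibroblast or leukocyte UMI left out, the capillary-like Timp4 ratio of running over sedentary was -0.92, and with cells holding an Atf3 UMI left out it was -0.89.

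The proteinases that TIMPs inhibit were mostly sparse in the capillary-like cells. Of 21 matrix metalloproteinase genes, 13 had 0 UMIs in these cells, Mmp9 among them, and 2 reached 100 UMIs over the 3 libraries. Mmp15, which encodes a membrane-bound metalloproteinase, was the most abundant at 135, 174 and 84.9 CPM in running, sedentary and untreated cells. Mmp14, the membrane-bound activator of pro-MMP2, had 10.5, 5.61 and 8.92 CPM from 38, 20 and 35 UMIs, and Mmp2 had 3 UMIs in the running library and 0 in the others. The ADAM list reached the minimum with 5 of 9 genes, led by Adam15 at 312, 367 and 222 CPM, and the ADAMTS list with 5 of 19. Of the 8 TIMP partners 3 reached it, led by Kdr, the VEGFR2 gene, at 1219, 1281 and 897 CPM.

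Across these 4 lists 15 of 57 genes had enough counts, and 0 were lower and 2 higher in running cells by at least 0.32 on the log2 scale with the same direction against untreated cells. All genes gave 7.97% lower and 7.61% higher by this rule, of 8733. The median log2 ratio of the 15 was -0.12, and that of all genes -0.02. Adamts1, which encodes a secreted proteinase that cleaves versican and aggrecan, was at 488 CPM for running, 295 CPM for sedentary and 348 CPM for untreated cells, a running over sedentary log2 ratio of 0.73 (0.62 to 0.84). Cd63, a tetraspanin gene whose protein is a cell surface partner of TIMP1, was at 13.2, 8.97 and 8.16 CPM, with a ratio of 0.55 whose interval began at -0.12 and so included 0. Among genes not counted by the rule, Mmp15 had a ratio of -0.37 (-0.54 to -0.19) to sedentary cells but 0.67 to untreated cells. Adam17, the gene of the sheddase TACE, had -0.45 (-0.80 to -0.10) and 0.054 (-0.31 to 0.42). Mmp11, a matrix metalloproteinase gene, had the highest running over sedentary ratio of the 15, with an interval of 0.44 to 2.19 from 42 running and 17 sedentary UMIs, but was at -0.11 (-0.74 to 0.51) to untreated cells.

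**Figure D5:**
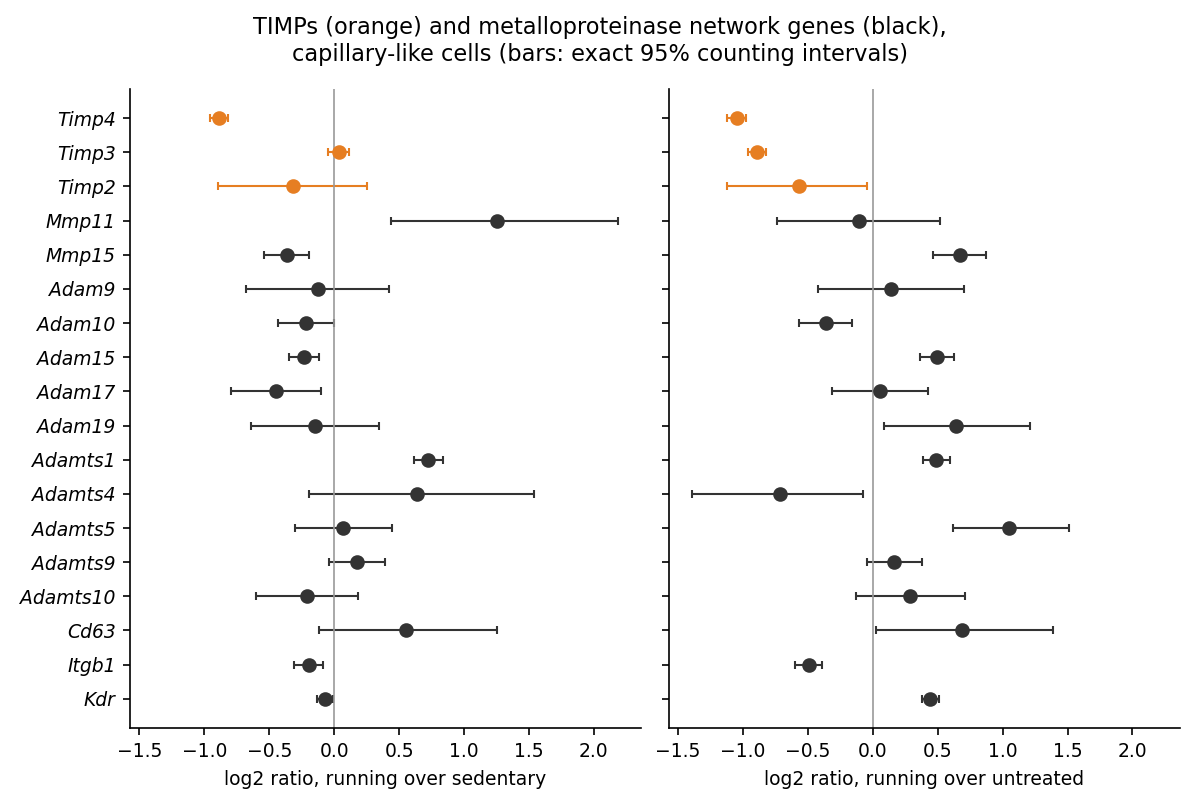
Log2 ratios in capillary-like cells of the running over the sedentary library and of the running over the untreated library (horizontal axes) for 3 TIMP genes (orange) and the 15 network genes with at least 100 UMIs (black), with bars for exact 95% counting intervals. Timp4 lies left of 0 in both panels (-0.89 and -1.05), Timp3 only against the untreated library, and Adamts1 lies right of 0 in both.

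The genes whose pattern was most like each member were taken over the 9 sums of 3 blood vessel classes in 3 libraries, by Pearson's r of log2(CPM + 1) among 6606 genes. The sums of a library share its depth and preparation, so these values are a description. For Timp4 they were Sag (r = 0.98), Dach1 (0.97), Mospd2 (0.97), Smco4 (0.96) and Cd200 (0.96). Cd200, an immunoglobulin superfamily membrane protein gene, stood at 1362, 1484 and 1749 CPM in running, sedentary and untreated capillary-like cells, and at 529, 603 and 645 CPM in vein-like cells. Dach1, a transcription factor gene, stood at 116, 167 and 170 CPM in capillary-like cells. For Timp3 they were Pik3c2a (0.98), Zbtb7a (0.98), Rcbtb1 (0.98), Msl1 (0.97) and St13 (0.97), each higher in the untreated than in the other libraries in every class, with Pik3c2a at 67.5, 71.2 and 196 CPM in capillary-like cells. For Timp2 they were Fam171a1 (0.99), Ctsh (0.99), Lhfpl2 (0.98), Bgn (0.98) and Psen2 (0.98), led in level by Bgn, the gene of the matrix proteoglycan biglycan, at 635, 603 and 718 CPM in vein-like cells and 15.1, 20.7 and 11.5 CPM in capillary-like cells.

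Among the members themselves, the patterns of Timp2 and Timp4 over these 9 sums were opposed (r = -0.88). Timp3 followed neither closely, with r = 0.38 to Timp4 and r = -0.14 to Timp2. All levels here are relative to the UMIs of a class, and absolute RNA per cell was not measured.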

How the data were processed

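The 3 deposited matrices held UMI counts as whole numbers, 1 for each gene and barcode. The 10x Chromium 3′ reagents, version 2, were used per the labels' protocols, and per the submitters' processing notes the counts came from Cell Ranger 2.0.2 on GRCm38.p5. The annotation release, the calling of cells and the use of strand are not given in the sources used here.

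Barcodes with at least 300 genes and at most 10% mitochondrial UMIs were kept, 11554 of 11715. Scrublet marked 2 of them (0.0173%), which were left out; at that rate doublets were in effect not filtered. Cells were scaled to 10000 counts, log-transformed and clustered together without integration (scanpy 1.11.5; 2000 variable genes without the 4 TIMP genes, 30 principal components, 15 neighbours, Leiden resolution 1). Names came from 13 lists of markers. The limits for a name (class score 0.3, endothelial score -0.5, 2 markers among the 10 leading genes for lymphatic or non-endothelial names) were set after the data were seen. Unnamed clusters held 2.27%, 1.57% and 1.34% of the running, sedentary and untreated cells.

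Counts were summed per class and library and scaled to CPM. Levels carry exact Poisson intervals, ratios exact conditional intervals with a prior count of 0.5 in the point value, and shares exact Clopper-Pearson intervals. With 1 library in each group no test was made. The ratio calculation was tested on simulated data. The members, gene lists and rules were chosen with earlier results of these data known. Named were the 4 members, list genes at least 0.32 (log2) different from the sedentary library in the same direction as from the untreated one, the most abundant gene of each list, overlapping genes, and the 5 genes most like each member. Other genes were named after their values were seen (Mmp2, Mmp9, Mmp11, Mmp14, Adam17 and leading genes of clusters). TMM factors came from edgeR 4.0.16.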

Additional observations from a re-analysis of the deposited data

Results flagged for a closer look

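The Timp4 ratios of 2 vessel classes lay on opposite sides of 0 when the sedentary library was set against the untreated one. Its log2 ratio of sedentary over untreated cells was 0.48 in vein-like cells and -0.16 in capillary-like cells, with intervals of 0.20 to 0.76 and -0.22 to -0.10. The vein-like ratio was -0.054 with each library clustered alone, and within vein-like clusters 4 and 11 it was 0.28 and -0.09, with neither interval excluding 0. The capillary-like ratio was negative in 14 of 14 alternatives, from -0.28 to -0.049, and 7 of these lay outside its counting interval. With 1 library in each group, the difference between these ratios was not tested. For the untreated library, batch and group cannot be told apart.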

How the results depend on the processing

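The running over sedentary log2 ratio of Timp4 was negative under each alternative tried, at -0.92 to -0.80 over 15 alternatives in capillary-like cells, -0.72 to -0.11 over 13 in artery-like cells and -1.07 to -0.66 over 14 in vein-like cells. Each library clustered alone gave -0.11 for Timp4 (interval -0.28 to 0.058, which includes 0) and -0.40 for Timp3 in artery-like cells, and reversed the vein-like sedentary over untreated ratio of Timp4 to -0.054. A minimum of 500 genes per cell gave 0.11 for Timp3 in capillary-like cells and reversed the vein-like running over untreated ratio of Timp4 to 0.071. Leaving out cells with a mural, fibroblast or leukocyte UMI gave vein-like running over sedentary ratios of -0.45 for Timp2 and -0.25 for Timp3. After thinning to 1000 UMIs, Timp3 was at 0.12, 0.014 and 0.26 in capillary-like, artery-like and vein-like cells, and without Atf3-positive cells it was at 0.40 in vein-like cells. Without cluster 6 the capillary-like ratios were -0.80 for Timp4 and -0.056 for Timp3. Thinning, leaving out Atf3-positive cells, leaving out cluster 6 and clustering without the untreated library were chosen after seeing the data. The capillary-like difference in cells with a Timp4 UMI was -16.7 percentage points at 500 UMIs and -11.5 without thinning. The cause of these shifts was not tested. The remaining 115 running over sedentary ratios under the alternatives stayed within the counting interval of the main value. For Timp2 that interval is wide and includes 0, and the sign changed under some alternatives. The Timp2 ratio went from -0.31 to as high as 0.25 in capillary-like cells and from 0.25 to as low as -0.16 in artery-like cells. Of the other ratios, which include those over all kept cells, 204 stayed within the counting interval of the main value, 37 left it and 2 reversed. The capillary-like sedentary over untreated ratio of Timp4 left it in 7 of 14 alternatives. The artery-like one ran from -0.36 to 0.34 over 12. With at least 20 instead of at least 100 UMIs, 1756 instead of 901 genes were lower and 1628 instead of 638 higher in running capillary-like cells. With the TIMP genes allowed among the variable genes, artery-like cells were not compared, because the leading genes of 1 cluster held more capillary than artery markers. No paired analysis was possible because each group had 1 library. Depth limits Timp1 in every class, Timp2 in capillary-like cells and all members in lymphatic-like cells.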

Other observations

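The clusters that were given a name other than a vessel class held TIMP counts too. Mural or fibroblast cells (38 running, 12 sedentary and 45 untreated cells) had 1359, 2388 and 2691 CPM of Timp3, 336, 75.8 and 114 CPM of Timp2, and 145, 190 and 192 CPM of Timp4. A cluster led by muscle fibre genes (29, 53 and 12 cells) had 16, 35 and 4 Timp4 UMIs, or 636, 1033 and 453 CPM. An unnamed cluster led by genes such as Apln and Ccnd1 held 40 running and 22 sedentary cells and 0 untreated ones, with Timp4 at 299 CPM in running and 300.1 CPM in sedentary cells, and Timp3 at 673 and 700.2 CPM.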
